A study of Mus musculus with 6 samples.

Results

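The genes described here are 32 genes of protein folding and degradation in the endoplasmic reticulum, taken by symbol from the 25664 genes of a count table of mouse alveolar macrophages, and all 32 were found there. They were taken in 4 roles: 3 sensors and signalling factors (Atf6, Ern1 and Xbp1), 15 chaperones and folding enzymes, 6 genes of the translocon and the oligosaccharyltransferase, and 8 genes of degradation. Alveolar macrophages are the phagocytes that live in the airspaces of the lung and clear surfactant and inhaled particles. Mice of the genotype Vav1cre/+ Pex5fl/fl are called Pex5-deficient here, and the controls carried Pex5fl/fl without the recombinase, so both groups share the floxed alleles and nothing in the control group accounts for Cre itself. The Vav1 promoter drives Cre throughout the blood lineage, so other blood cells of the same mice would be recombined too. Each group had 3 libraries, and each library came from 50000 alveolar macrophages sorted after lavage of the airways. The labels give neither age nor sex, nor whether mice were pooled or whether the 3 samples of a group are different mice, and the p-values therefore reflect no more than the spread between samples, possibly a technical one.

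Proteins bound for the cell surface, lysosomes or secretion enter the endoplasmic reticulum through the SEC61 channel, where chaperones fold them and enzymes add sugars and disulfide bonds. Proteins that do not fold are taken back to the cytosol and destroyed, a process called ER-associated degradation. When unfolded proteins build up, the sensors IRE1-alpha (encoded by Ern1), ATF6 and PERK raise the transcription of chaperone and degradation genes, with XBP1 and the cleaved form of ATF6 as the transcription factors. Macrophages make large amounts of secreted and lysosomal proteins and use the same machinery.

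Total counts were 13325609 to 19413838 per library. Pex5 itself measured 32.4 ± 3.45 CPM (counts per 1000000 counts) in Pex5-deficient and 31.6 ± 1.71 CPM in control macrophages (mean ± SD, n = 3 each). Exons outside the floxed part can still give reads, and reads by exon were not examined. This gene count therefore does not check the genotype, and loss of the floxed part in the sorted cells was not tested. Pex5-deficient replicate 2 stood apart, with a scaling factor of 1.34 against 0.90 to 1.03 in the other 5 libraries. Some of the log2 fold changes it moves are also given without it. Summed alveolar macrophage markers were at 41550 to 66290 CPM in Pex5-deficient and 47500 to 64520 CPM in control libraries, over 8 of 8 genes, most of it Chil3. Within that list Siglecf was called lower, at 219 ± 39.0 CPM in Pex5-deficient and 651 ± 28.6 CPM in control macrophages (edgeR adjusted p = 0.00334). Ear2 was at 3089.9 ± 1425 CPM in Pex5-deficient and 9259 ± 2422 CPM in control macrophages with no overlap (edgeR adjusted p = 0.0753). The rest of the list overlapped between groups and was not called. Log2 fold changes there were 0.16 for Chil3, 0.07 for Pparg, -0.84 for Marco, -0.33 for Car4, -0.48 for Mrc1 and -0.41 for Plet1. Markers of plasma and B cells, whose endoplasmic reticulum is unusually dense, summed to at most 0.337 CPM in Pex5-deficient and 0.263 CPM in control libraries, with Mzb1, Cd79a, Cd79b, Sdc1 and Pou2af1 at 0 counts in all 6. Of the 6 markers of alveolar type 2 cells, which secrete surfactant, the sum was 12.9 to 18.9 CPM in Pex5-deficient and 39.3 to 134 CPM in control libraries, nearly all of it Epcam, while Sftpc was at most 0.626 CPM in Pex5-deficient and 1.49 CPM in control libraries. The 7 neutrophil markers summed to 52.01 to 64.6 CPM in Pex5-deficient and 9.91 to 14.6 CPM in control libraries, from S100a8 and Cxcr2 alone, with the other 5 at 0 counts. The part of these differences in the results below was not tested, and in sorted bulk samples fewer cells of a type cannot be told apart from less RNA per cell.

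None of the 32 genes was called different between Pex5-deficient and control macrophages, 0 higher and 0 lower, in the quasi-likelihood test of edgeR at a Benjamini-Hochberg adjusted p of 0.05 over 11011 genes, where 3.25% of all genes tested were called. DESeq2 and limma-voom called 0 as well. At an unadjusted p under 0.05 there were 5 of 32 (15.6%), 2 higher and 3 lower, against 18.9% of all genes tested (9.7% higher and 9.17% lower). The groups did not overlap for 6 (18.8%), 1 higher and 5 lower, against 26.1% of all genes (13% higher and 13.1% lower). With 32 genes, neither share is read as a difference from the background. The median log2 fold change was -0.03 over the 32 genes and -0.00 over all genes tested, and single genes lay between -0.53 (Canx) and 0.36 (Edem1). When libraries were scaled by size alone, the median was 0.17 for all genes and 0.12 for the 32 genes. Leaving out Pex5-deficient replicate 3 called 1 gene, Edem1 (log2 fold change 0.57, adjusted p = 0.0404). Without Pex5-deficient replicate 1 the median was -0.17, and without replicate 2 it was 0.05.

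A missed threshold does not show that levels were alike, so the 95% intervals of the main fit are given. Each interval is for a single gene, is not adjusted for the number of genes, and depends on the scaling. With scaling by library size alone, the log2 fold change of Edem1 was 0.57 ± 0.25 (SE), against 0.36 ± 0.19 in the main fit. For all 32 genes the upper bound lay under a 2-fold rise, and for 27 under a 1.5-fold rise. The whole interval lay within 2-fold in either direction for 29 genes and within 1.5-fold for 16. The exceptions at 2-fold were Canx, Pdia3 and Dnajb9, whose lower bounds were at 0.415, 0.493 and 0.465 of the control level.

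**Figure D1:**
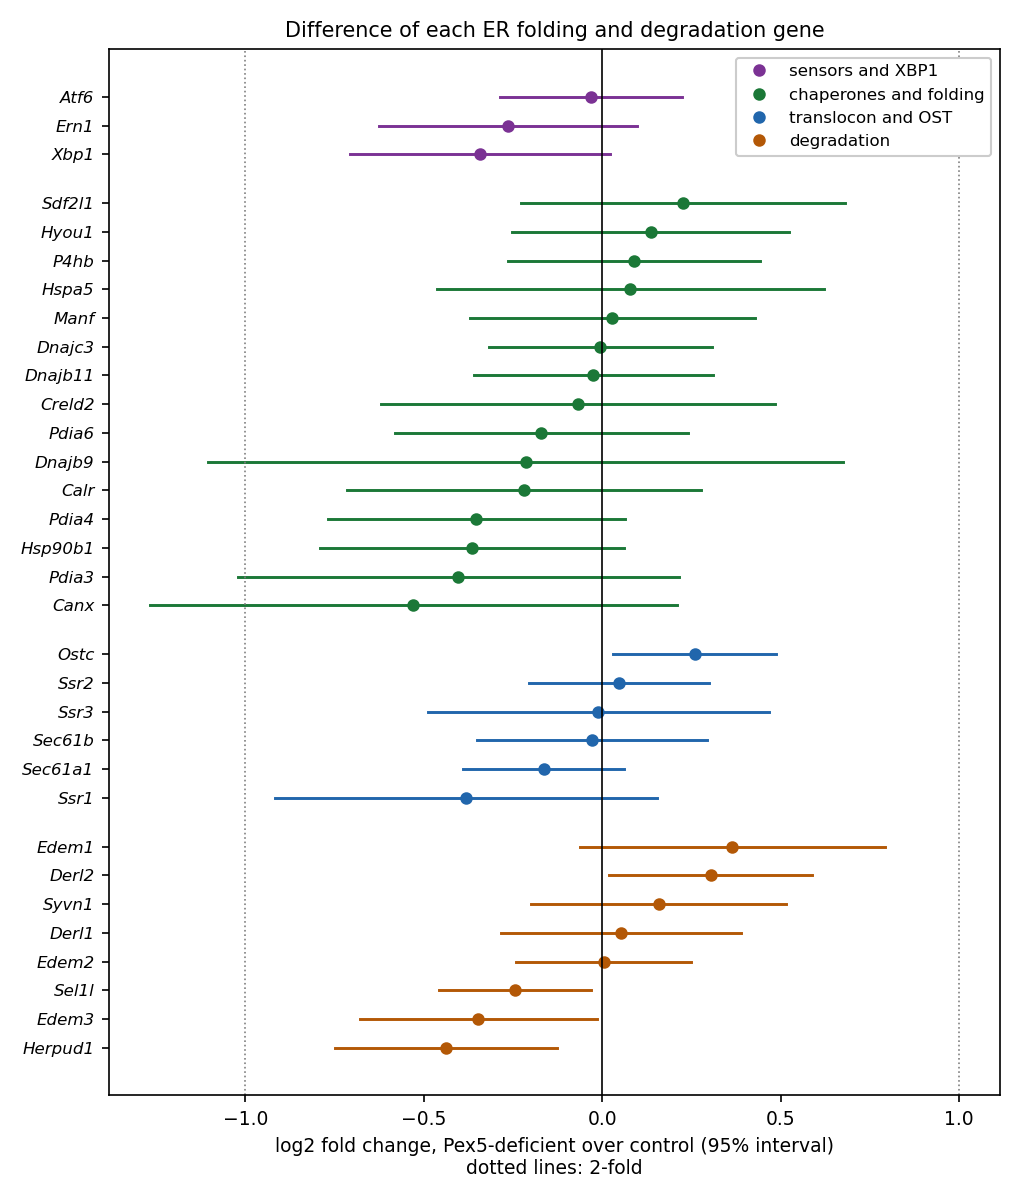
Log2 fold change of each of the 32 genes, Pex5-deficient over control (x axis, points), with its 95% interval (lines), grouped by role (y axis and colours) and with dotted lines at 2-fold. Only Ostc, Derl2, Herpud1, Edem3 and Sel1l have an unadjusted interval that leaves out 0, and 0 of 32 were called after adjustment.

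Many genes of this set share a promoter element through which ATF6 and XBP1 act, and these elements are printed because several of the genes that carry them, Hspa5 among them, are the usual readouts of folding stress. Promoter windows of 250 bases before to 50 after the start (RefSeq, GRCm38.p6) were found for 25 of the 32 genes. Both strands were searched for the ER stress response element (ERSE, CCAAT and CCACG with 9 free bases between them), its second form (ERSE-II, ATTGG and CCACG with 1 free base between them) and the core of the unfolded protein response element (UPRE, TGACGTGG). ERSE was found in 8 of the 25 genes, against 0.137% of 27025 genes with a window, and ERSE-II in 2, against 0.0444%. The UPRE core was found in 0 of the 25, against 0.714%. The 11 elements follow, each read on the strand that matches, 5′ to 3′, with the fixed letters in capitals and the spacer in lower case, and none of them overlaps another.
Hspa5 ERSE, chr2:34772025-34772043, + strand: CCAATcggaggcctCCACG
Hsp90b1 ERSE, chr10:86705638-86705656, - strand: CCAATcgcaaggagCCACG
Hsp90b1 ERSE, chr10:86705533-86705551, + strand: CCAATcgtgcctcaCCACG
Dnajb11 ERSE-II, chr16:22857852-22857862, + strand: ATTGGcCCACG
Dnajc3 ERSE, chr14:118937827-118937845, + strand: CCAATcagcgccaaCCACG
Calr ERSE, chr8:84847075-84847093, + strand: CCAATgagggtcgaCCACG
Canx ERSE, chr11:50325800-50325818, - strand: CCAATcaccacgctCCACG
Pdia6 ERSE, chr12:17266491-17266509, + strand: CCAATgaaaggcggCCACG
Creld2 ERSE, chr15:88819520-88819538, - strand: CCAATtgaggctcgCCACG
Herpud1 ERSE-II, chr8:94386377-94386387, + strand: ATTGGgCCACG
Syvn1 ERSE, chr19:6046532-6046550, + strand: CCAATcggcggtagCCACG

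The 4 most abundant genes with an element are shown with the whole window, in the direction of the gene, with the fixed letters of each element in capitals (for a match on the other strand, their complement).
Canx, chr11:50325624-50325923, - strand: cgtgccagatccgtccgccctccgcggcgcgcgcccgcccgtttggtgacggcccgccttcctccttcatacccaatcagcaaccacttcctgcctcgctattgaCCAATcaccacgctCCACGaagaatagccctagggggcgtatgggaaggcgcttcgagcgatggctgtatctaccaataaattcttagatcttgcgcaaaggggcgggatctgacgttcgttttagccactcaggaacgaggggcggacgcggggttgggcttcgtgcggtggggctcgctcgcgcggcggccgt
Calr, chr8:84846882-84847181, - strand: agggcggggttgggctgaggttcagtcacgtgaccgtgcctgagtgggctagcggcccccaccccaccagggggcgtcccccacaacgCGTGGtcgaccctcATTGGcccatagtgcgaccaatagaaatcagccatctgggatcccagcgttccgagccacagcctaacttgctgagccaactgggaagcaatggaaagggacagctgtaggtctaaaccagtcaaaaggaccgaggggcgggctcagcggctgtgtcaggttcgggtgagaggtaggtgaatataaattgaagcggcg
Hspa5, chr2:34771840-34772139, + strand: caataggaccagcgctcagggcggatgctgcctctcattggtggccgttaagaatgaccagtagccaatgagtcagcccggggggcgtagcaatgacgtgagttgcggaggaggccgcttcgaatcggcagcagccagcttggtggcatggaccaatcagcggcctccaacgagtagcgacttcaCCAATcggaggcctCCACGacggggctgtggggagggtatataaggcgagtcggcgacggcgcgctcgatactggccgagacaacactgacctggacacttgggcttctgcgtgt
Hsp90b1, chr10:86705395-86705694, - strand: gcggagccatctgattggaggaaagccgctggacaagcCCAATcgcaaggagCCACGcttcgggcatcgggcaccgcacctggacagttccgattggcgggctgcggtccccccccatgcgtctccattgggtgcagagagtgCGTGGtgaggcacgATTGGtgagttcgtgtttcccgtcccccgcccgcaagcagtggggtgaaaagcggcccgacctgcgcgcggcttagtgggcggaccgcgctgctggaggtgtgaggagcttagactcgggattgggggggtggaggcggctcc
The element of Hspa5 begins at -65 from the start, that of Canx at -145 and that of Calr at -162, while Hsp90b1 has 2, at -212 and -107. A match is a description of the letters and not of binding. The 10 genes with an ERSE or ERSE-II had a median log2 fold change of -0.12 (range -0.53 to 0.16), with 2 above and 8 below 0. The 15 genes whose window held neither had a median of -0.21 (range -0.40 to 0.36), with 5 above and 10 below 0. The 7 genes with no window had a median of 0.05 (range -0.16 to 0.26), with 5 above and 2 below 0. Only exact letters within the window were searched, so a gene without a match may still hold a response element. The split is therefore not one of targets against other genes. By library, 7, 1 and 2 of the 10 genes with an element were above the control mean in Pex5-deficient replicates 1, 2 and 3, against 1, 9 and 4 in control replicates 1, 2 and 3. The counts were uneven among the libraries of both groups.

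Levels per kilobase of exon allow the genes to be set against each other. P4hb, which encodes the major protein disulfide isomerase, was at 235 ± 31.3 in Pex5-deficient and 220.5 ± 11.6 in control macrophages (CPM per kilobase, SD, n = 3 each). Pdia3, a disulfide isomerase of glycoproteins, was at 186 ± 59.4 in Pex5-deficient and 246 ± 56.4 in control macrophages, and Calr, which encodes the calcium-binding lectin chaperone calreticulin, at 199 ± 59.5 in Pex5-deficient and 231 ± 12.8 in control macrophages. These 3 led both groups, in a different order, and their ranges over libraries overlapped. Xbp1 and Canx, which encodes the membrane-bound lectin calnexin, came next in controls at 179 and 177 CPM per kilobase, and Hspa5 next in Pex5-deficient macrophages at 150.4. At the low end stood Ern1 at 1.11 ± 0.123 in Pex5-deficient and 1.34 ± 0.140 in control macrophages, Edem3 at 1.63 ± 0.122 in Pex5-deficient and 2.07 ± 0.228 in control macrophages and Atf6 at 2.66 ± 0.217 in Pex5-deficient and 2.72 ± 0.203 in control macrophages. The transcripts of the sensors were among the least abundant of the set, while Xbp1, the factor that IRE1-alpha activates by splicing, ranked 4 of 32 in controls and 5 of 32 in Pex5-deficient macrophages. These lengths come from GENCODE M21, which may not be the annotation used for counting.

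Of the sensors and signalling factors, 0 of 3 were called, against 3.25% of all genes tested. Their median log2 fold change was -0.26, or -0.073 with scaling by library size alone. Xbp1 (chr11:5520659-5525893, GRCm38) measured 514, 382 and 479 CPM in Pex5-deficient replicates 1 to 3, against 588, 628 and 526 CPM in control replicates 1 to 3. All 3 Pex5-deficient libraries lay below all 3 controls, the lowest being replicate 2. The log2 fold change was -0.34 ± 0.16 (SE, n = 3 each, edgeR adjusted p = 0.290), with a 95% interval of -0.71 to 0.02, and it was -0.21 without Pex5-deficient replicate 2. A gene count does not tell the spliced, active Xbp1 message from the unspliced one. Ern1, the kinase and RNase that splices Xbp1, had 8.60, 10.3 and 8.42 CPM in the Pex5-deficient libraries and 9.86, 12.1 and 10.8 CPM in the control libraries, each in the order of replicates 1 to 3 as in the values that follow, and the groups overlapped (log2 fold change -0.26 ± 0.16). Atf6, a membrane-bound transcription factor freed by cleavage, had 22.3, 25.1 and 26.2 CPM in the Pex5-deficient libraries and 26.3, 23.0 and 26.1 CPM in the control libraries, overlapping nearly in full (log2 fold change -0.03 ± 0.11, 95% interval -0.29 to 0.22).

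The chaperones and folding enzymes had 0 of 15 called, 0 of 15 with groups that did not overlap (against 3.25% and 26.1% of all genes tested), and a median log2 fold change of -0.07, which was 0.06 with scaling by library size alone and 0.10 without Pex5-deficient replicate 2. Their summed level was 5278, 3286 and 4997 CPM in Pex5-deficient replicates 1 to 3, against 5449, 5422 and 4662 CPM in control replicates 1 to 3. Replicate 2 of the Pex5-deficient group was the lowest of the 6 by a wide margin, and the other 2 lay within the range of the controls. The ratio of the group means was 0.873 with that library and 0.992 without it. In that library 14 of 15 chaperone genes were below the control mean, Hyou1 being the exception, while in Pex5-deficient replicate 1 it was 4 of 15. As a share of all counts without scaling, the 15 genes took 0.506%, 0.439% and 0.455% in Pex5-deficient replicates 1 to 3, against 0.490%, 0.499% and 0.481% in control replicates 1 to 3. Replicate 2 was the lowest for the chaperones on that measure too, but for the translocon and degradation genes it had the highest share of the 6 libraries, at 0.0910% and 0.0894%. Over all 32 genes the share was 0.706%, 0.675% and 0.650% in Pex5-deficient replicates 1 to 3, against 0.694%, 0.711% and 0.693% in control replicates 1 to 3.

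**Figure D2:**
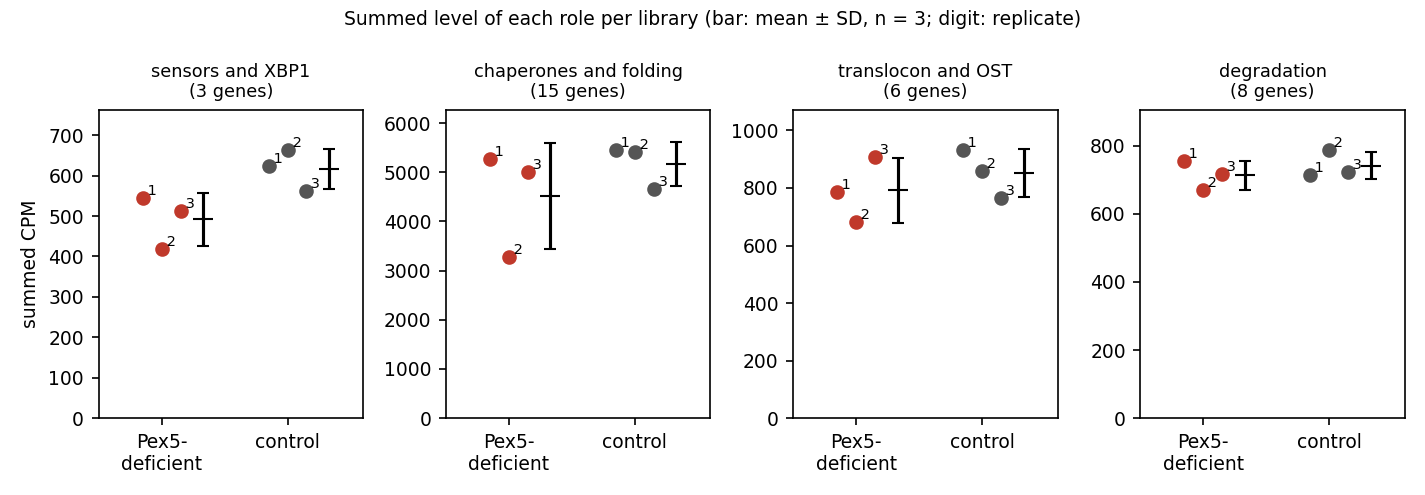
Summed CPM of the genes of each role (y axis, from 0) in each library (points, numbered by replicate), with the mean ± SD of 3 libraries per group. For the 15 chaperones Pex5-deficient replicate 2 sits at 3286 CPM while the other 5 libraries lie between 4662 and 5449 CPM.

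Hspa5, which encodes BiP, the main HSP70 chaperone of the endoplasmic reticulum and the usual readout of its stress, measured 837, 414 and 657 CPM in Pex5-deficient replicates 1 to 3, against 579, 630.3 and 597 CPM in control replicates 1 to 3. On these scaled values the controls lay close together, and the Pex5-deficient libraries held both the highest and the lowest value of the 6. The lowest place of Pex5-deficient replicate 2 depends on its scaling factor of 1.34. When counts are divided by total counts alone, control replicate 1 is the lowest. With scaling by library size alone the log2 fold change was 0.19 ± 0.16 (SE). The log2 fold change was 0.08 ± 0.24 (SE, edgeR adjusted p = 0.896), with a 95% interval of -0.46 to 0.62, and it was -0.17 without Pex5-deficient replicate 1 and 0.32 without replicate 2. The coefficient of variation of Hspa5, also on scaled values, was 33.4% in Pex5-deficient and 4.34% in control macrophages. Over the 32 genes its median was 18.4% in Pex5-deficient and 8.38% in control macrophages, against 11.6% and 9.22% over tested genes with a mean of at least 8 CPM. The Pex5-deficient values include replicate 2, where the median log2 deviation of the 32 genes from the control mean was -0.27. The spread without that library was not calculated, so it is not read as a trait of the genotype.

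Several other chaperones, grouped here after their values were seen, followed the order of Hspa5 among the Pex5-deficient libraries. On scaled values replicate 1 was the highest of these libraries and replicate 2 the lowest. This held for Sdf2l1, Creld2, Manf, Dnajb11 and Dnajc3, and also for Hsp90b1, Calr, Pdia4 and Pdia6, described further below. Sdf2l1, a partner of BiP that keeps folding clients from aggregating, had 190.0, 114 and 135 CPM in the Pex5-deficient libraries and 103, 144 and 128 CPM in the control libraries. Creld2, a disulfide isomerase-like protein, had 84.2, 42.6 and 48.8 CPM in the Pex5-deficient libraries and 51.5, 70.7 and 61.0 CPM in the control libraries, and Manf, a secreted stress-regulated factor, 99.0, 62.1 and 71.8 CPM in the Pex5-deficient libraries and 68.2, 86.0 and 73.7 CPM in the control libraries. The groups overlapped for each of them. Log2 fold changes were 0.23 ± 0.20 for Sdf2l1, -0.07 ± 0.24 for Creld2 and 0.03 ± 0.18 for Manf. Without Pex5-deficient replicate 2 they were 0.39, 0.13 and 0.18. Dnajb11 and Dnajc3, J-domain co-chaperones of BiP, had log2 fold changes of -0.03 ± 0.15 and -0.01 ± 0.14, and Hyou1, a nucleotide exchange factor for BiP, 0.14 ± 0.17.

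Hsp90b1, Calr, Pdia4 and Pdia6, grouped here after their values were seen, had log2 fold changes below 0 that did not pass. Their size depended on the libraries kept. Without Pex5-deficient replicate 2 they were -0.20 for Hsp90b1, -0.01 for Calr, -0.20 for Pdia4 and 0.00 for Pdia6. Without Pex5-deficient replicate 1 they were -0.56, -0.46, -0.59 and -0.36 in the same order. Hsp90b1, which encodes GRP94, a chaperone of Toll-like receptors and integrins, measured 494, 305 and 383 CPM in Pex5-deficient replicates 1 to 3, against 500.4, 551 and 471 CPM in control replicates 1 to 3. Pex5-deficient replicate 1 lay among the controls and the other 2 lay below them (log2 fold change -0.37 ± 0.19, adjusted p = 0.331). About 15.7% of its exon length overlaps other annotated genes, none of which is in the count table. Calr measured 746, 403 and 568 CPM in Pex5-deficient replicates 1 to 3, against 626, 674 and 699 CPM in control replicates 1 to 3, spread more widely in Pex5-deficient macrophages than in controls (log2 fold change -0.22 ± 0.22). Pdia4, a disulfide isomerase, had 247, 149.7 and 171 CPM in the Pex5-deficient libraries and 232, 257 and 235 CPM in the control libraries (log2 fold change -0.35 ± 0.18), and Pdia6, another one, had a log2 fold change of -0.17 ± 0.18. P4hb was at 0.09 ± 0.16, with an interval of -0.26 to 0.44.

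A different order of the libraries was seen in Canx, Pdia3, Dnajb9, Ssr1 and Ssr3, grouped here after their values were seen. Canx measured 536, 363 and 831 CPM in Pex5-deficient replicates 1 to 3, against 1074, 857 and 566 CPM in control replicates 1 to 3. Control replicate 1 was the highest of the 6, and Pex5-deficient replicate 2 the lowest, with Pex5-deficient replicate 3 close to control replicate 2 (log2 fold change -0.53 ± 0.32, adjusted p = 0.420, 95% interval -1.27 to 0.21). Without Pex5-deficient replicate 2 the log2 fold change of Canx was -0.27 and without replicate 3 it was -0.89. Pdia3 had 649, 372 and 727 CPM in the Pex5-deficient libraries and 938, 789 and 585 CPM in the control libraries (log2 fold change -0.40 ± 0.27, or -0.15 without Pex5-deficient replicate 2). Dnajb9, a J-domain protein that recruits BiP to the sensor IRE1-alpha, had 63.7, 67.1 and 159 CPM in the Pex5-deficient libraries and 161, 105 and 70.1 CPM in the control libraries. Its log2 fold change was -0.21 ± 0.39, or 0.01 without Pex5-deficient replicate 2 and -0.78 without replicate 3. It had the widest spread of the 32 genes, with a coefficient of variation of 55.9% in Pex5-deficient and 41.0% in control macrophages. In all 5 genes control replicate 1 was the highest control, control replicate 3 the lowest, and replicate 3 the highest Pex5-deficient library. The same held for Sec61b and for several genes of the wider list described below, so this order is not particular to the 5. Over the 11011 genes tested, the deviations of Pex5-deficient replicate 3 and control replicate 1 from their group means correlated at 0.40 across genes, the highest of the 9 pairs between the groups, and genes are not independent replicates.

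**Figure D3:**
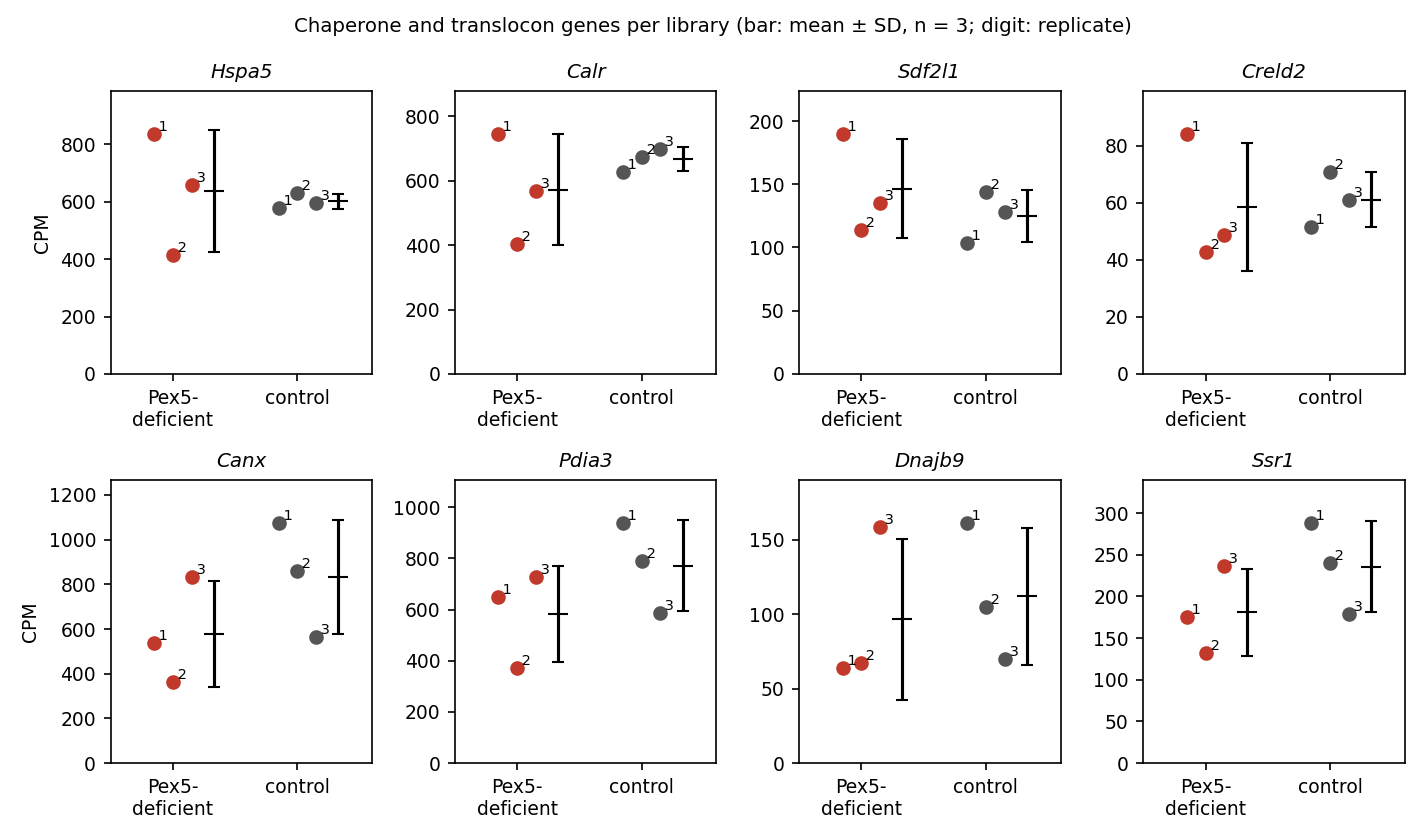
CPM (y axis, from 0) of 8 chaperone and translocon genes in each library (points, numbered by replicate), with mean ± SD, n = 3 per group. In the top row Pex5-deficient replicate 1 is the highest library for Hspa5, Calr, Sdf2l1 and Creld2, and in the bottom row control replicate 1 is the highest for Canx, Pdia3, Dnajb9 and Ssr1.

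Among the 6 genes of the translocon and glycosylation complex, 0 were called, against 3.25% of all genes tested. The median log2 fold change was -0.02, or 0.12 with scaling by library size alone. Ostc, a subunit of the oligosaccharyltransferase that adds sugar chains to proteins as they enter, measured 88.5, 76.6 and 84.1 CPM in Pex5-deficient replicates 1 to 3, against 65.5, 71.1 and 71.5 CPM in control replicates 1 to 3. All 3 Pex5-deficient libraries were above all 3 controls (log2 fold change 0.26 ± 0.10, SE, unadjusted p = 0.0304, edgeR adjusted p = 0.211). Sec61a1, the pore subunit of the channel, had 157, 156 and 149 CPM in the Pex5-deficient libraries and 167, 176 and 175 CPM in the control libraries. Here the Pex5-deficient libraries all lay below the controls, by a small margin (log2 fold change -0.16 ± 0.10, 95% interval -0.39 to 0.06), and its coefficient of variation was among the smallest of the set, 2.70% in Pex5-deficient and 3.04% in control macrophages. Under scaling by library size alone its log2 fold change was 0.01. Sec61b, the tail-anchored beta subunit, was at -0.03 ± 0.14. The translocon-associated protein subunits Ssr1, Ssr2 and Ssr3 were at -0.38 ± 0.23, 0.05 ± 0.11 and -0.01 ± 0.21. Ssr1 had 175, 132 and 236 CPM in the Pex5-deficient libraries and 288, 241 and 179 CPM in the control libraries, with the groups overlapping, and its log2 fold change was -0.18 without Pex5-deficient replicate 2 and -0.62 without replicate 3.

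The 8 degradation genes also had 0 calls, against 3.25% of all genes tested. Their median log2 fold change was 0.03, or 0.18 with scaling by library size alone. Their summed level was 754, 669 and 718 CPM in Pex5-deficient replicates 1 to 3, against 715, 787 and 724 CPM in control replicates 1 to 3. The genes at an unadjusted p under 0.05 were 4 of these 8, 1 higher and 3 lower, against 18.9% of all genes tested (9.7% higher and 9.17% lower). Herpud1, a stress-induced membrane protein that holds the degradation complex together, measured 100.1, 122 and 132 CPM in Pex5-deficient replicates 1 to 3, against 147, 179 and 154 CPM in control replicates 1 to 3. All 3 Pex5-deficient libraries were below all 3 controls, and at -0.44 ± 0.14 (SE, n = 3 each) it had the smallest p of the 32 genes, with an edgeR adjusted p of 0.128 and a 95% interval of -0.75 to -0.13. Over the 14 alternatives its log2 fold change ranged from -0.52 to -0.26 and its adjusted p from 0.0794 to 0.644. Sel1l, the adaptor that joins the ubiquitin ligase to its clients, measured 113, 108 and 108 CPM in Pex5-deficient replicates 1 to 3, against 128, 132 and 128 CPM in control replicates 1 to 3. On scaled values both groups were tight and did not overlap, and the difference was small (log2 fold change -0.24 ± 0.09, adjusted p = 0.207). With scaling by library size alone the log2 fold change of Sel1l was -0.07 ± 0.20 (edgeR adjusted p = 0.923). Edem3, a mannosidase that marks glycoproteins for destruction, had 10.5, 9.58 and 11.1 CPM in the Pex5-deficient libraries and 12.0, 14.8 and 12.7 CPM in the control libraries, again with no overlap (log2 fold change -0.35 ± 0.15, adjusted p = 0.246). With scaling by library size alone its log2 fold change was -0.19 ± 0.30. When counts are divided by total counts alone, the groups overlap for Herpud1, Sel1l and Edem3.

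The other degradation genes had log2 fold changes at or above 0, with groups that overlapped. Derl2, a derlin of the exit channel, measured 84.9, 64.0 and 81.0 CPM in Pex5-deficient replicates 1 to 3, against 65.7, 61.4 and 59.0 CPM in control replicates 1 to 3, and Pex5-deficient replicate 2 lay within the controls (log2 fold change 0.30 ± 0.13, adjusted p = 0.239). Edem1, a mannosidase-like lectin that delivers misfolded glycoproteins, measured 55.1, 57.2 and 33.3 CPM in Pex5-deficient replicates 1 to 3, against 36.4, 38.6 and 38.1 CPM in control replicates 1 to 3. Replicates 1 and 2 of the Pex5-deficient group were above every control and replicate 3 was below every control, while the controls varied by 3.08% (log2 fold change 0.36 ± 0.19, adjusted p = 0.332, and 0.0404 without Pex5-deficient replicate 3). Syvn1, the ubiquitin ligase HRD1, was at 0.16 ± 0.16, and Derl1 and Edem2 were at 0.05 ± 0.15 and 0.00 ± 0.11. Within the same complex, Sel1l and Herpud1 had values below 0 and Syvn1, Derl1 and Derl2 values above 0, none of them called.

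**Figure D4:**
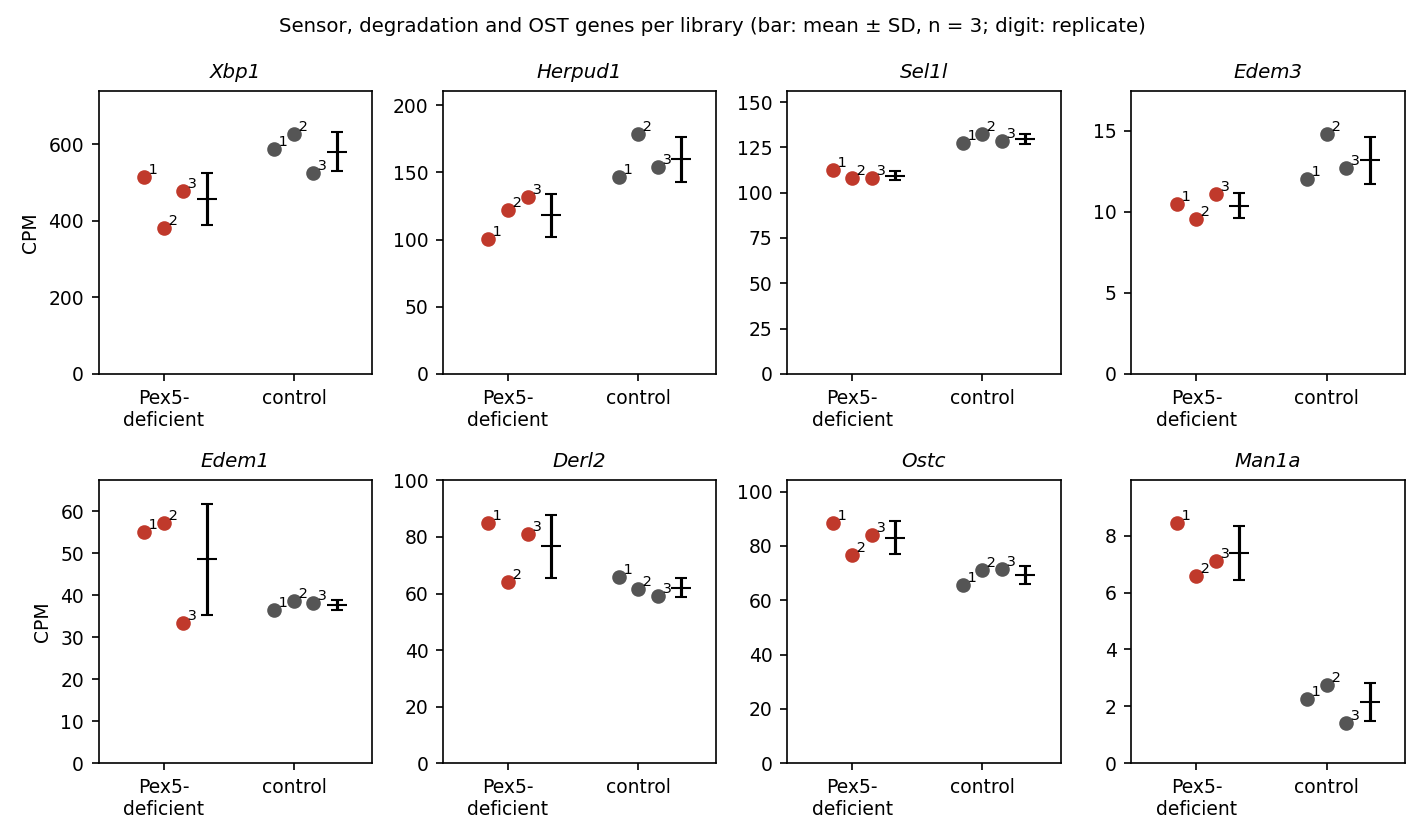
CPM (y axis, from 0) of Xbp1, 5 degradation genes, Ostc and Man1a in each library (points, numbered by replicate), with mean ± SD, n = 3 per group. On these scaled values Xbp1, Herpud1, Sel1l and Edem3 have all 3 Pex5-deficient libraries below the controls, Ostc and Man1a all 3 above, and of these Man1a alone was called.

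The map of all 32 genes by library shows these patterns together, on scaled values. Relative to the control mean, 18, 6 and 14 of the 32 genes were higher in Pex5-deficient replicates 1, 2 and 3, and the median deviation was 0.10, -0.27 and -0.08 on the log2 scale. In control replicates 1, 2 and 3 the counts were 9, 26 and 12 and the medians -0.06, 0.06 and -0.02.

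**Figure D5:**
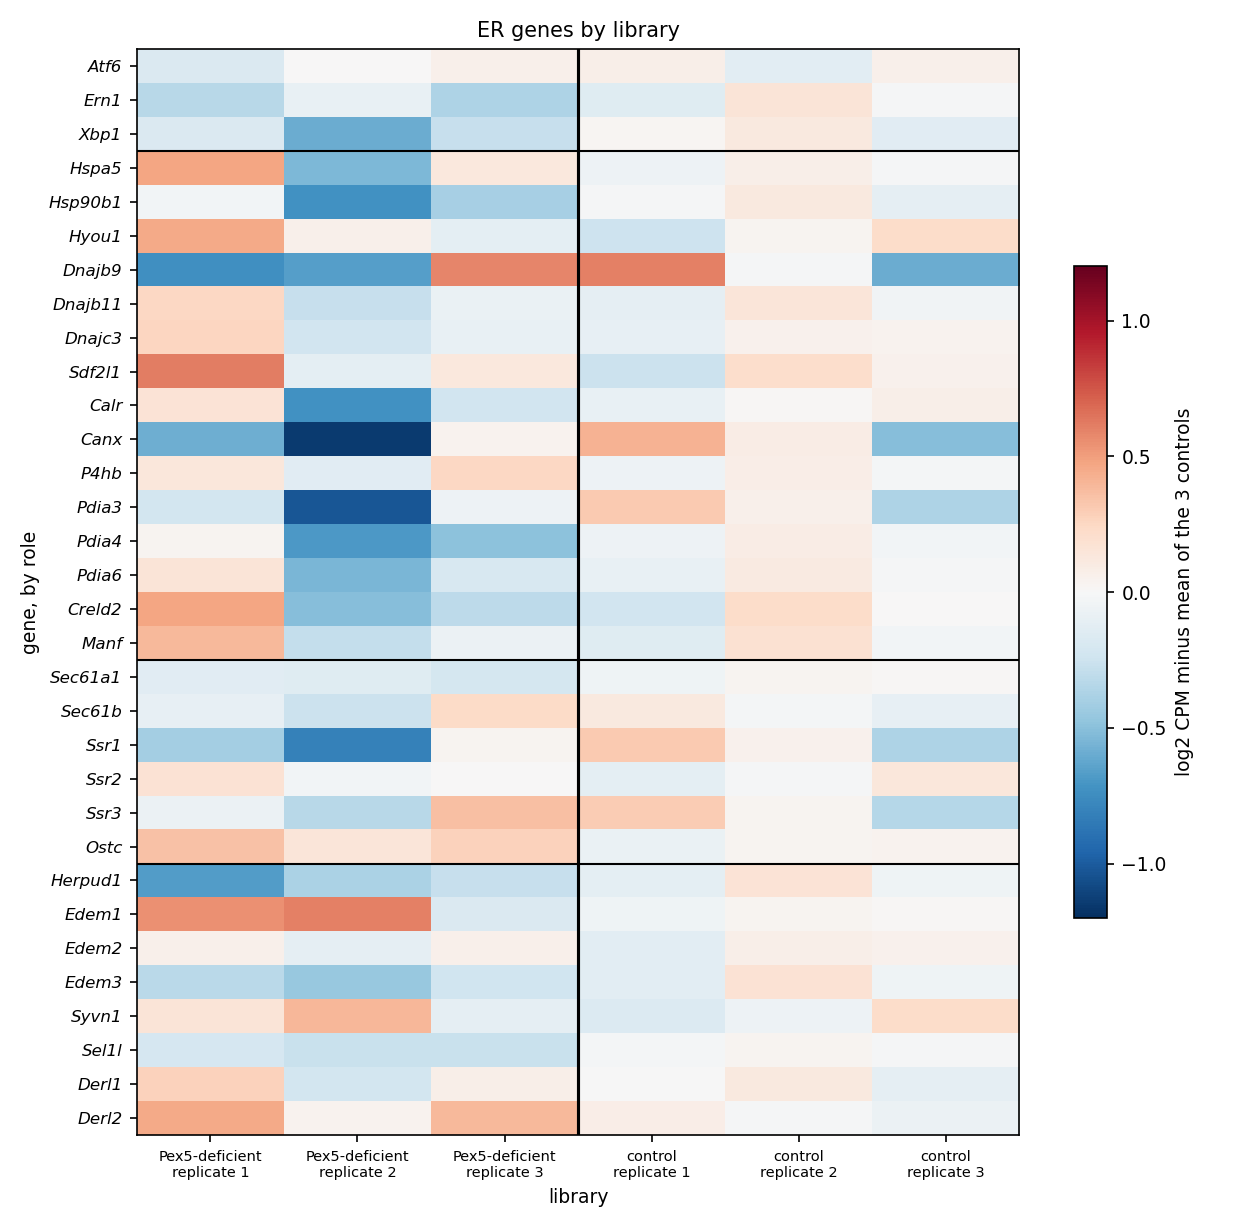
Log2 CPM of each of the 32 genes (y axis, by role) minus the mean of the 3 controls, in each library (x axis, Pex5-deficient on the left), red above and blue below. The chaperone rows are mostly red in Pex5-deficient replicate 1 and mostly blue in replicate 2, where 14 of 15 are below the control mean.

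A wider list of 85 further genes of the same 4 roles had 82 that were tested. Of these 1 was higher and 0 were lower by the same test, where 1.74% of all genes were called higher and 1.51% lower, and 12 (14.6%) were at an unadjusted p under 0.05, against 18.9% of all genes. The one called was Man1a, a Golgi mannosidase that trims N-linked glycans (chr10:53904785-54076609, GRCm38), which rose to 8.45, 6.60 and 7.12 CPM in Pex5-deficient replicates 1 to 3, against 2.27, 2.75 and 1.42 CPM in control replicates 1 to 3. The groups did not overlap (log2 fold change 1.77 ± 0.26, SE, n = 3 each, adjusted p = 0.0128). It lost its call without Pex5-deficient replicate 1 (adjusted p = 0.0549) and without control replicate 1 (adjusted p = 0.0612), its log2 fold change being 1.67 and 1.80 there. In the other degradation genes of the list 0 of 21 were called, and Vcp, the ATPase that pulls clients into the cytosol, was at -0.37 ± 0.12 (adjusted p = 0.144).

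The further chaperones had 0 of 28 tested genes called by edgeR, against 3.25% of all genes tested. Pdia5, a disulfide isomerase linked to the activation of ATF6, had 2.03, 0.966 and 1.81 CPM in the Pex5-deficient libraries and 3.75, 4.35 and 3.51 CPM in the control libraries, with no overlap (log2 fold change -1.31 ± 0.31, adjusted p = 0.0610). Sdf2, the paralogue of Sdf2l1, had 49.3, 57.6 and 47.8 CPM in the Pex5-deficient libraries and 32.2, 34.9 and 41.5 CPM in the control libraries, with no overlap in the other direction (log2 fold change 0.51 ± 0.13, adjusted p = 0.0726). DESeq2 called both, Pdia5 lower (adjusted p = 0.00717) and Sdf2 higher (adjusted p = 0.0272). Without a filter on low counts edgeR called both, and limma-voom called Pdia5 and not Sdf2 (adjusted p = 0.0499). The further translocon genes had 0 of 25 called, against the same share of all genes. Tmem258, an oligosaccharyltransferase subunit, was at 0.31 ± 0.12. Get1 (listed as Wrb), a receptor for tail-anchored proteins, was at 0.34 ± 0.14 and was called without Pex5-deficient replicate 2 (edgeR adjusted p = 0.0432). The further sensors had 0 of 7 called, again against 3.25% of all genes tested. Mbtps1, which encodes the protease that cleaves ATF6, was at -0.23 ± 0.11 and Creb3, a related membrane-bound factor, at 0.15 ± 0.09. Eif2ak3, which encodes the sensor PERK, was named for its place in the pathway after its values were seen, and had 6.49, 10.5 and 7.23 CPM in the Pex5-deficient libraries and 7.74, 7.50 and 8.98 CPM in the control libraries (log2 fold change 0.01 ± 0.21, 95% interval -0.47 to 0.50).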

How the data were processed

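RNA was sequenced from 6 libraries of sorted alveolar macrophages, 3 Pex5-deficient and 3 control, placed by their genotype labels with replicate numbers from the titles. Per the labels' protocols, the SMART-Seq kit marked strand and reads were single, 100 bases long, and no molecular identifiers are named, so counts are of reads and limits cover counting error only. The authors deposited raw counts per gene symbol for 25664 genes. The builds GRCm38.p5 and mm10 and the tools DESeq2 1.40.1, R 4.3.2, featureCounts and STAR are named, per the submitters' processing notes. Antisense and overlapping genes cannot be told apart, with annotation and strand setting not given in the sources used here. From these counts, genes were kept by filterByExpr of edgeR (minimum count 10, minimum total 15), which left 11011 genes and all 32 described here. Libraries were scaled by TMM (trimmed mean of M values), and levels are CPM on scaled library sizes, except that the summed marker levels are CPM of unscaled totals, where 3 counts equal 0.154 to 0.225 CPM. Groups were compared by edgeR's quasi-likelihood F test (edgeR 4.0.16; R 4.3.3), which is two-sided, and p was adjusted over the whole table by Benjamini-Hochberg, with 0.05 as the threshold. limma 3.58.1 and DESeq2 1.42.0 served as alternatives. The standard error of a gene is its fold change over the root of F, and log2 CPM by library used 2 as prior count. No 2 libraries held identical counts. The members, roles and lists were chosen with earlier results of these data known. Named were all 32 genes and, of the wider list, each gene called and the 2 with the smallest p in each role, with Eif2ak3 added after its values were seen. Whole promoters are shown for the 4 genes of highest mean CPM among those with an element. Positions are from GENCODE M21 (GRCm38) and promoter windows from RefSeq (GRCm38.p6). Of the 32 genes, 1.35% of the 100-base words of Dnajb9 and 2.57% of those of Derl1 occur in another annotated gene, and 0% for the other 30. At least 5% of the exon length overlaps other genes for Hsp90b1, Manf, Sec61a1 and Ssr2. The 14 alternatives were other scalings, filters and tests, a replicate block, and leaving out each library.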

Additional observations from a re-analysis of the deposited data

How the results depend on the processing

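The count of 0 among the 32 genes held under 13 of 14 alternatives and was 0 to 1 when 1 library was left out, the exception being Edem1 without Pex5-deficient replicate 3. The count over all genes was 358 by edgeR, 755 with DESeq2 and 76 to 523 with 1 library left out. In the wider list, where edgeR called 1 gene, DESeq2 called 3, limma-voom 2, and edgeR without a filter on low counts 3. It called 0 with a mean of at least 5 CPM, a filter that removes Man1a, and 0 to 2 with 1 library left out. Scaling by library size alone gave medians of 0.12 for the 32 genes, -0.073 for the sensors, 0.12 for the translocon and 0.18 for degradation, against a median of 0.17 for all genes. With 1 library left out the median of the 32 genes ranged from -0.17 to 0.051, that of the sensors from -0.33 to -0.18, of the chaperones from -0.18 to 0.10, of the translocon from -0.16 to 0.093 and of degradation from -0.048 to 0.075.

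The labels do not say whether shared replicate numbers pair the libraries. The correlations below cannot settle it, because deviations from a mean of 3 libraries are not independent. Deviations of same-numbered libraries from their group means correlated at -0.21, -0.06 and -0.41 for replicates 1 to 3, and none correlated best with its own number. With a replicate block 83 genes were called in all, 0 of the 32 and 0 of the wider list, and Man1a had a log2 fold change of 1.80 (adjusted p = 0.0573). With 3 libraries a group, the intervals of variable genes were wide, that of Canx reaching down to -1.27 on the log2 scale.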
